A study of Mus musculus with 6 samples.

Results

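U3 and U7 are small noncoding RNAs that act on the ends of other RNAs. U3 is the box C/D small nucleolar RNA (snoRNA) of the small subunit processome, the large particle that assembles on the ribosomal precursor in the nucleolus. It does not guide a methylation as most box C/D snoRNAs do. Its 5′ part pairs with the 5′ external transcribed spacer (5′ETS), the leader that is cut away from the precursor, and with 18S ribosomal RNA, and it is needed for the cleavages that release 18S. Its 3′ part carries the box motifs that the core proteins fibrillarin, Nop56, Nop58 and Nhp2l1 bind. U7 is the small nuclear RNA of the U7 particle, which pairs through its 5′ end with an element just downstream of the cleavage site of replication-dependent histone pre-mRNAs. Those mRNAs end in a hairpin and have no poly(A) tail. U7 is a rare RNA of the nucleus.

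Contacts of both RNAs were read from MARIO libraries of mouse cells. In MARIO, RNAs are crosslinked to protein, the proteins are held on beads, a biotin-tagged linker is ligated to RNA ends, and neighbouring ends are joined, so that each molecule reads as a first fragment (RNA1), the linker and a second fragment (RNA2). ES-1 and ES-2 were assays on the E14 line of embryonic stem (ES) cells, strain 129/Ola, and ES indirect was made from that same line. MEF was made from embryonic fibroblasts of strain C57Bl/6. Ultraviolet light of 254 nm, which links RNA to a protein in direct touch, was the crosslink in all but ES indirect. There formaldehyde and EGS were used, which can also link one protein to another. The first fragments were near 1000 nt for ES cells and near 300 nt for MEF by the labels, while the methods of the study give ES-1 a range that reaches longer fragments than in ES-2. They were made with RNase I, or by sonication in ES indirect. Ribosomal RNA was removed from ES-2 and MEF with the GeneRead kit and from the others with a duplex-specific nuclease. The group ES has 2 libraries, ES-1 and ES-2, and the other groups hold 1 library each, so only ES has a spread between assays. ES-1 and ES indirect shared cell line and depletion but differed in crosslink and in the way of fragmentation, which cannot be told apart. MEF differed from ES in cell type, strain and fragment size, and from ES-1 in depletion, which cannot be told apart either.

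A read pair was taken as a member when either end had the name U3 or U7. There were 51911 such lines of 8319389 in the 4 libraries, and 30481 read pairs of 5581375 after lines with equal coordinates and strands of both fragments were collapsed to 1. By library, 11384 collapsed member read pairs came from ES-1, 1516 from ES-2, 17435 from ES indirect and 146 from MEF. The brain libraries of the series, technical replicates of 1 animal, held 1 and 4 member lines and are not described further. The whole series held 10479650 lines in 6 libraries.

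Some libraries stand apart for these RNAs. In ES indirect the 34848 lines of U3 collapsed to 17391 read pairs, against 15116 to 11292 in ES-1, 1595 to 1510 in ES-2 and 146 to 144 in MEF. In MEF only 79.9% of the U3 ends lay on the sense strand (95% Wilson interval 73.3 to 85.2), while the share was 99.5% in ES-1, 96.4% in the ES-2 library and 99.9% in ES indirect. Member read pairs with equal coordinates in both libraries numbered 214 for ES-1 and ES indirect, 22 for ES-2 and ES indirect, and 6 for ES-1 and ES-2. No other pair of libraries shared any. All 8 ES cell markers had ends in each library, at 161 per 1e+06 ends in ES-1, 132 in the ES-2 library, 318 in ES indirect and 42.8 in MEF. The fibroblast markers summed to 141, 113, 146 and 612 per 1e+06 in the same order, with 7 of 8 genes seen in the ES cell libraries and 6 of 8 in MEF, where the defining markers Lum and Dcn were at 0.

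The U3 sequence that carried most ends is shown with capitals from the commonest first base of its RNA1 fragments in ES indirect, nt 78, to its 3′ end. It belongs to Rnu3b (ENSMUSG00000070251), 1 of 4 loci of identical sequence inside the span of Tex14 on chromosome 11, and lies at chr11:87256739-87256952 on the plus strand of NCBIM37 (mm9). The second U3 sequence is the most used divergent copy, at chr10:39978273-39978484 on the plus strand, in lower case throughout. The U7 sequence is that of Rnu7 (ENSMUSG00000089083), chr6:124691243-124691304 on the minus strand, with capitals from the first to the last base that was covered at least 50% as often as the best covered base over the 4 libraries, nt 7 to 62.
U3, Rnu3b: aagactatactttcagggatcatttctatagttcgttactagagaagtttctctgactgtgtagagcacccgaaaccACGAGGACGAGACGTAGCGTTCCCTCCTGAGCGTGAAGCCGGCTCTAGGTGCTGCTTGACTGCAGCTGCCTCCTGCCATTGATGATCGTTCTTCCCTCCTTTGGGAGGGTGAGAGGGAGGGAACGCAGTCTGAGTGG
U3, chromosome 10 copy: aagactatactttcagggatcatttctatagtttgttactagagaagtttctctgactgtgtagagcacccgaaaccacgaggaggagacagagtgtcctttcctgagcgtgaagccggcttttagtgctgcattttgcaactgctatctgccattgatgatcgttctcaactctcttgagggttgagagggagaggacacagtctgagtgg
U7, Rnu7: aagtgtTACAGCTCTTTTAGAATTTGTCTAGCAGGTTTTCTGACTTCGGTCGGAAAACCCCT

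U3 was found in every library, and its share differed most between ES indirect and MEF. It had 11292 read pairs in ES-1, 0.489% of the library (0.480 to 0.498), and 1510 in ES-2, 0.122% (0.116 to 0.128). Over both ES libraries the share was 0.305% ± 0.260 (SD, n = 2). In ES indirect U3 had 17391 read pairs, 1.05% (1.04 to 1.07), and in MEF 144, 0.0385% (0.0327 to 0.0453). ES indirect therefore lay above both ES libraries and MEF below both, by more than counting error, but groups of 1 library allow no test between groups. U3 was also counted against annotated ends without a ribosomal name, which leaves ribosomal and unannotated ends out of the total. It took 7152 ends per 1e+06 in ES-1, 1807 in the ES-2 library, 15332 in ES indirect and 432 in MEF, which is the same order. With only read pairs of which both fragments match the genome at their stated place, the share in MEF was 0.104%. The share counts ligated read pairs and is not a measure of the amount of U3. ES-1 and ES-2, from the same line, differed as well (0.489% and 0.122%). Fewer cells that use U3, less U3 per cell, and differences in crosslink, fragmentation or depletion cannot be told apart in these bulk libraries. The intervals cover counting error only, since read pairs are not independent molecules.

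U7 was rare in every library. It had 92 read pairs in ES-1, 6 in the ES-2 library, 45 in ES indirect and 2 in MEF. Its level in the same order was 19.9, 2.42, 13.6 and 2.67 ends per 1e+06 ends. Over the ES libraries the share of read pairs was 0.00223% ± 0.00247 (SD, n = 2), so that the difference between ES-1 and ES-2 was larger than the mean. In ES indirect the share was 0.00272% (0.00203 to 0.00364), inside the range of the ES libraries, and 0.00157% with every line counted. Both RNAs were lower in ES-2 than in ES-1, and lower in MEF than in ES-1 and ES indirect.

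**Figure D1:**
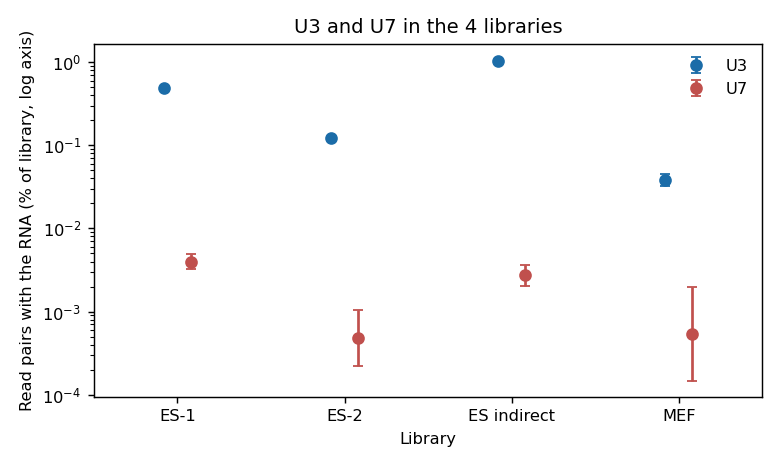
Read pairs with U3 (blue) and with U7 (red) as a share of each library's collapsed read pairs in percent, on a log axis, with 95% Wilson intervals. U3 ran from 0.0385% in MEF to 1.05% in ES indirect, and both RNAs were lower in ES-2 than in ES-1.

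Levels most like these were sought among 412 small nuclear and nucleolar RNA names with at least 50 ends, by the root mean square difference of centred log2(ends per 1e+06 + 1) over the 4 libraries. For U3 the nearest were U5, the spliceosomal RNA that holds the exons to be joined, at 0.72, Snord15b at 0.74 and AL929450 at 0.76, against a median of 2.96 over all names. From ES-1 over ES-2 and ES indirect to MEF, U5 had 796, 198, 766 and 90.9 ends per 1e+06, where U3 had 2632, 675, 7173 and 233. For U7 the nearest were U1 at 0.38, U11 at 0.42 and Snord17 at 0.43, against a median of 2.18. These are likenesses over 4 libraries and carry no test.

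The U3 ends came from few loci. The 4 identical Rnu3b copies held 68.8% of U3 ends in ES-1 (68.0 to 69.6), 63.1% in the ES-2 library (60.7 to 65.3), 69.5% in ES indirect (68.9 to 70.1) and 69.5% in MEF (62.3 to 75.9). Within a library they were used almost alike, with 2079 to 2107 ends per copy in ES-1 and 4013 to 4231 in ES indirect. Since the copies are identical, a fragment inside them cannot belong to 1 of them by its sequence. The chromosome 10 copy, which shares 184 of the 214 bases of Rnu3b, held 18.5%, 18.7%, 12.9% and 20.7% in the order of the libraries above. A copy on chromosome 19 (chr19:4078299-4078512, 206 of 214 bases) held 4.74%, 7.94%, 12.7% and 4.60%, highest in ES indirect. All 92 U7 ends of ES-1, all 6 of ES-2, 42 of 45 in ES indirect and both in MEF lay at Rnu7, although the annotation holds 116 loci named U7.

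Because equal U3 fragments are spread over the identical copies, collapsing by coordinates leaves duplicates. Read pairs were therefore also counted once where the U3 fragment had the same place on the 214 nt of U3 whichever copy the file named, which is called merging the copies below. This left 8684 of 11292 U3 read pairs in ES-1, 1438 of 1510 in the ES-2 library, 12753 of 17391 in ES indirect and 136 of 144 in MEF. It was applied to U3 alone, so other RNAs with identical copies keep their duplicates. Values are given with and without it where they differ much.

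Most U3 read pairs of the ES libraries had a partner with a ribosomal name. In ES indirect this class holds 1735 fragments of the 5′ETS and 117 of the first internal spacer, all named Rn45s. The 5′ETS fragments of the other libraries had no ribosomal name and are left out, so ES indirect is not counted on the same footing. The ribosomal share was 64.9% in ES-1 (64.0 to 65.7), 52.7% in the ES-2 library, 38.1% in ES indirect and 25.7% in MEF. In each library this was below the pooled share of all other snoRNA names, which was 69.6%, 59.4%, 42.0% and 31.8%. A read pair between 2 of those snoRNAs counts once in the pool, which raises its ribosomal share beside that of 1 RNA. These values therefore do not rank U3 against a single other snoRNA. In MEF the interval of U3 (19.3 to 33.4) held the value of the other snoRNAs. In ES indirect U3 had 45.2% with its copies merged, 41.2% with a genome match of both fragments and 41.6% with fragments of at least 20 nt. The share of the other snoRNAs was not recounted under these settings, so no order is given there. Other snoRNAs made up 11.4% of U3 partners in ES-1 and 7.28% in ES-2, 9.35% ± 2.92 over both (SD, n = 2), and 0.943% in ES indirect. The other snoRNAs met a snoRNA of another name in 7.51%, 4.78% and 3.97% of their read pairs in the same libraries. There each locus has a name of its own, and with pairs of 1 symbol left out these shares were 6.95%, 4.23% and 2.71%. U3 lay above both sets of pooled values in the ES libraries and below both in ES indirect. Counting read pairs between 2 other snoRNAs once lowers their snoRNA share beside that of 1 RNA. The ES values therefore do not show that U3 met snoRNAs more often than a single other snoRNA did. In MEF U3 had 4.86% (2.37 to 9.69), an interval that held the 5.41% and 5.00% of the others. Protein-coding RNAs made up 6.45%, 13.5%, 13.4% and 20.8% of U3 partners in the order of the libraries above. Counting every line brought the ribosomal share of U3 in ES indirect down to 21.2%, where the self pairs alone took 22632 lines and 6359 collapsed read pairs.

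**Figure D2:**
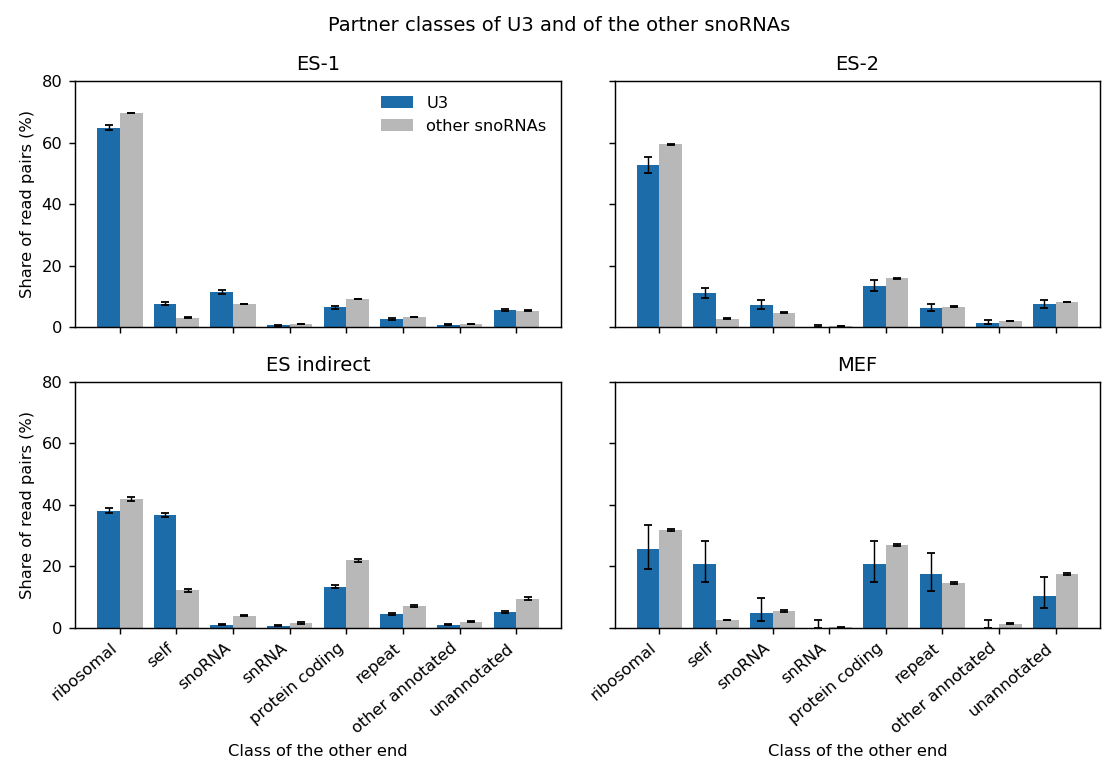
Share of read pairs by class of the other end in percent, for U3 (blue) and all other snoRNA names together (grey), with 95% Wilson intervals, in each of the 4 libraries. The self class of U3, whose loci share 1 name, reaches 36.6% in ES indirect, and each locus of the other snoRNAs has a name of its own.

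Within ribosomal RNA, U3 differed from the other RNAs pooled at the 5′ETS. The ribosomal precursor is represented by 1 locus of NCBIM37, chr17:39979932-39985783 on the plus strand, which holds 5852 nt from the start of the 5′ETS into the first internal spacer (ITS1). By the deposited names the 5′ETS ended at nt 3333 and 18S at nt 5244. In ES-1, 127 of 2094 U3-joined fragments at this locus lay in the 5′ETS, 6.06% (5.12 to 7.17), against 0.687% of fragments joined to any other RNA (0.655 to 0.721). In ES-2 they were 8 of 151, 5.30% (2.71 to 10.1), against 0.667%. In ES indirect they were 1735 of 3590, 48.3% (46.7 to 49.96), against 17% (20844 of 122446), and in MEF 3 of 7 against 1.89%. The other RNAs of ES indirect include the name FordPrefect, with 4293 read pairs with the 5′ETS, a name treated below. The ES libraries gave 5.68% ± 0.54 (SD, n = 2). The share was higher for U3 than for other RNAs in each of the 4 libraries, and all 127, all 8 and all 3 of the 5′ETS fragments in ES-1, ES-2 and MEF lay on the sense strand.

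Merging the copies of U3 lowered these shares but left them above those of other RNAs. They became 4.25% in ES-1 (3.36 to 5.37, 66 of 1552), 2.84% in the ES-2 library (1.11 to 7.07, 4 of 141) and 44.7% in ES indirect (42.9 to 46.5, 1335 of 2985), and 3 of 7 in MEF. The ES mean was 3.54% with copies merged and 8.90% with every line counted. In ES-2 the 4 fragments at nt 150 to 300 of the locus became 1.

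The deposited names of this partner differed between libraries. In ES indirect all 1735 of these 5′ETS fragments were named Rn45s, the ribosomal precursor. In ES-1, 82 of 127 had no annotation, 41 bore the name FordPrefect, a DNA transposon, and 4 the name MTC-int, a retroviral repeat. In ES-2, 4 of 8 were unannotated and 4 named FordPrefect. The sequence of all 42 FordPrefect fragments joined to U3 in ES-1, all 5 in ES-2 and all 14 in ES indirect was found in the 5′ETS, as was that of 31 of the 35 Mir5099 fragments joined to U3 in ES indirect.

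Whether U3 met the 5′ETS more often than its own and the 5′ETS's totals predict was tested by naming the stretches of the locus as RNAs of their own. A one-sided Fisher's exact test was run for each observed pair of RNAs over the whole table, with Benjamini-Hochberg adjustment. Called pairs had an adjusted p below 0.05 and 3 read pairs or more. The unit is the read pair, so a p-value here speaks of the libraries read and holds no error between replicates. Of all pairs tested in this way 0.519% were called in the ES libraries pooled (ES merged), 0.63% in ES-1, 0.381% in the ES-2 library, 2.16% in ES indirect and 0.636% in MEF. U3 and the 5′ETS were called in each: 135 read pairs against 23.7 predicted in ES merged, 5.69-fold (Fisher's exact test, adjusted p = 1.47e-52), and 1735 against 632 in ES indirect, 2.74-fold (adjusted p = 1.16e-315). In ES-1 the ratio was 5.56-fold (exact adjusted p = 1.77e-48), in ES-2 3.62-fold on 8 read pairs (exact adjusted p = 0.0228) and in MEF 20.6-fold on 3 read pairs (exact adjusted p = 0.00629). With copies merged the ratio was 3.67-fold in ES merged (exact adjusted p = 3.40e-16) and 2.40-fold in ES indirect (exact adjusted p = 4.85e-188), while the call was lost in ES-2, at 4 read pairs (exact adjusted p = 0.345). U3 was not the only RNA called with the 5′ETS. Of the RNAs joined to it, 4 of 1043 were called in ES merged, 3 of 505 in ES-2, 33 of 5782 in ES indirect and 3 of 188 in MEF, U3 among them in each. The 4 of ES merged were U3, FordPrefect on 92 read pairs, Celf4 on 4 and Mir5099 on 4. FordPrefect was also called in ES-2, ES indirect and MEF, and Mir5099 in ES indirect. As given above, all FordPrefect fragments and most Mir5099 fragments of ES indirect that met U3 were 5′ETS sequence. Whether the ones joined to the 5′ETS were so too was not tested. In ES-2 the snoRNA Snora64 was called on 14 read pairs, more than the 8 of U3.

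With lines collapsed, no other stretch of ribosomal RNA was called with U3 in ES merged or ES indirect. In ES merged, U3 met 18S at 0.69 of the prediction and the large subunit, named LSU-rRNA_Hsa, at 0.79. In ES indirect these ratios were 0.50 and 0.58. ITS1 was at 1.32 in ES merged, on 11 read pairs, and at 0.78 in ES indirect, on 117, with exact adjusted p = 0.458 and 1. With every line counted ITS1 was called in ES merged, on 93 lines, all from ES-1, at 7.63-fold (exact adjusted p = 1.74e-46), and with copies merged it was at 0.74 on 5 read pairs.

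U3 was among the RNAs with the highest 5′ETS share. Of 267 RNAs with at least 100 fragments joined at the locus in ES-1, only FordPrefect was above it, of 157 in ES-2 none was, and of 118 in ES indirect FordPrefect and Mir5099 were. Where they met U3, all FordPrefect fragments and 31 of the 35 Mir5099 fragments of ES indirect were 5′ETS sequence, as given above. The median RNA had 0.564%, 0.522% and 13.8% in the same libraries. Other snoRNAs of ribosomal cleavage with many fragments lay lower. Snord118 (U8) had 5 of 743 fragments in the 5′ETS in ES-1, 0.673% (0.288 to 1.57), and 15 of 82 in ES indirect, 18.3% (11.4 to 28.0). Snord14d, a copy of U14, which pairs with 18S, had 32 of 172 in ES indirect, 18.6% (13.5 to 25.1). Snord22 had 10 of 1164 in ES-1, 0.859%, and Snora73b (U17) had 32 of 5622, 0.569%. The upper bounds given and those of Snord22 (1.57) and Snora73b (0.802) lie below the lower bound of U3 in the same library. In ES-1 Snord14d had 2 of 59, 3.39% with an interval of 0.935 to 11.5, which reaches that of U3. A SNORA73 copy (ENSMUSG00000065328) had 3 of 67, 4.48% (1.53 to 12.4), whose interval also reaches it, as do those of most names with few fragments. In ES-2 that copy had 1 of 5, above the share of U3, and Snord118 had 2 of 95 (0.579 to 7.35). Single fragments in the 5′ETS were also the whole of a SNORA73 copy (ENSMUSG00000065158) in ES indirect and of Snord14e in MEF.

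In ES-1 and ES indirect the contacts were not spread evenly along the 5′ETS. Its first 1050 nt held 115 of the 127 fragments in ES-1 (90.6%) and 1396 of 1735 in ES indirect (80.5%), against 55.5% and 56.6% of the 5′ETS fragments of other RNAs. In ES-2 they held 4 of 8, against 47.1% for other RNAs, and 1 of 4 with copies merged. In MEF they held all 3, against 39.6%. The bound of 1050 nt was not planned and lies at the start of an ES-1 window without U3 fragments, so these shares are a description. In windows of 150 nt, those of ES-1 starting at nt 0, 150, 300, 750 and 900 held 24, 41, 24, 15 and 9 U3-joined fragments, and the windows starting at 600 and 1050 held none. In ES indirect the windows starting at 0, 300, 450 and 750 held 240, 267, 247 and 315, which is 7.17, 5.35, 6.36 and 9.71 times the share of other RNAs. The window between them at 150 nt held 118, 1.00 times that share, and the one at 600 nt held 71, 2.05 times that share. Both libraries had U3 contacts over the first 450 nt and again from 750 to 1050 nt, and at 600 to 750 ES-1 had none. With copies merged, the ES-1 windows at 0, 150, 300, 750 and 900 nt held 8, 18, 14, 11 and 5. Over 18S, the ratio of U3 to other RNAs stayed between 0.742 and 1.04 in ES-1 and between 0.395 and 0.844 in ES indirect in the windows that lay fully inside it from nt 3450 to 5100.

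**Figure D3:**
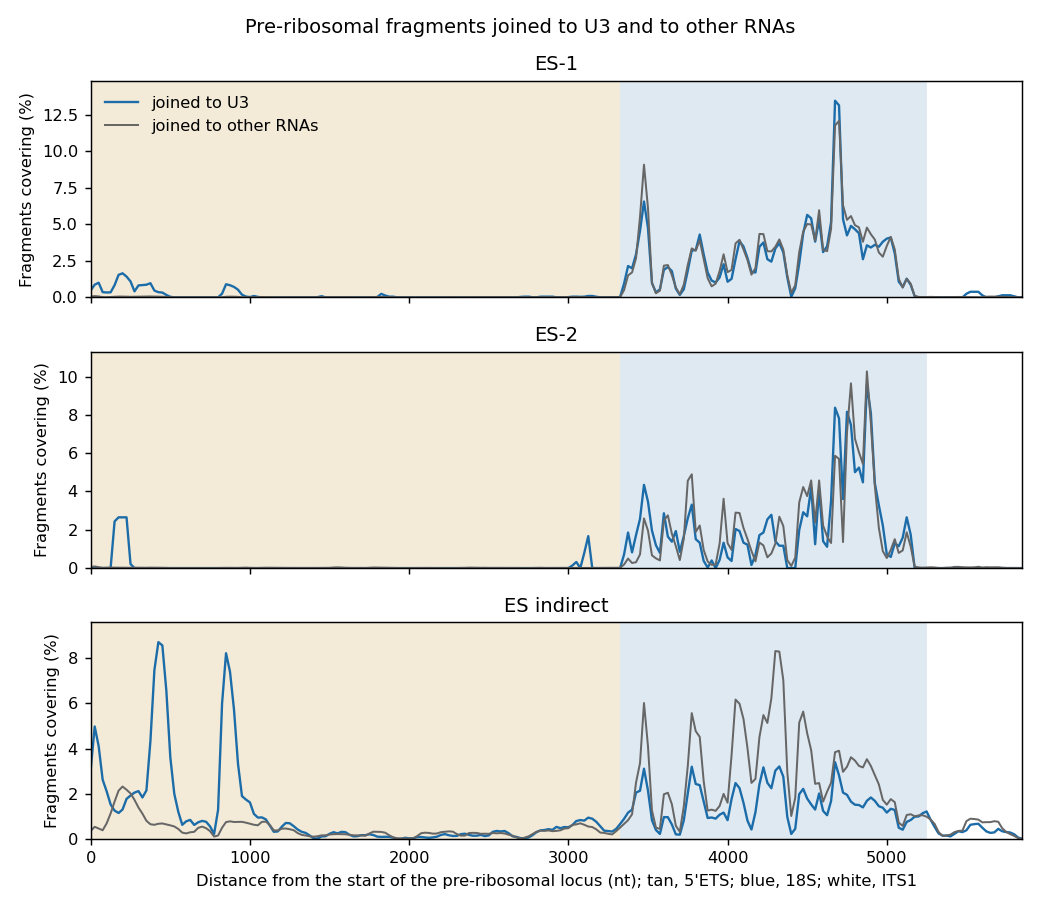
Share of the fragments of the pre-ribosomal locus that cover each position, in percent, for fragments joined to U3 (blue) and to other RNAs (grey), against distance from the start of the locus in nt. In ES-1 the U3 line lies above the grey line up to nt 525 and again from nt 825 to 1050, and is at 0 between. In ES indirect it lies above it over the first 1050 nt except from nt 150 to 275, and below it over 18S from nt 3425 to 5225.

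The 5′ETS bases that U3 met most are printed as the 100 nt around the most covered base of each library, which was nt 183 in ES-1 and nt 458 in ES indirect. They lie at chr17:39980065-39980164 and chr17:39980340-39980439 on the plus strand. A search for uninterrupted Watson-Crick complements of at least 9 nt between U3 and the locus found 7, all in the 5′ETS, of which 1 lay in its first 1050 nt. There U3 nt 39 to 47 are complementary to nt 913 to 921 of the locus, inside the window of nt 900 to 1050, which had U3 contacts in ES-1 (9) and ES indirect (138). The 150 nt around the complement, chr17:39980774-39980923 on the plus strand, start before that window and are shown with the complement in capitals. A match of this length is a description and was not tested as a site.
5′ETS, most covered in ES-1: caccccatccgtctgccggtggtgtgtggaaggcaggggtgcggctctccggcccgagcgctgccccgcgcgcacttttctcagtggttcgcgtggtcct
5′ETS, most covered in ES indirect: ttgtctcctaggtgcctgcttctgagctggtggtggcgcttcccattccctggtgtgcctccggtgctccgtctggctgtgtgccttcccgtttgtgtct
5′ETS, complement to U3: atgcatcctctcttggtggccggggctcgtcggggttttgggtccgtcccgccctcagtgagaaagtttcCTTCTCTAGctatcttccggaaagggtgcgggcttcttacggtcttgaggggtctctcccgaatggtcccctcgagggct

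Joined to other RNAs, U3 was read mostly from its 3′ part, the stretch in capitals in the sequence above. As RNA1 with a partner other than U3, its fragments in ES indirect began at nt 78 in 43.0% of cases (3366 of 7829), and in ES-1 at nt 79 in 14.9% (1329 of 8947). The window of nt 75 to 82 held 47.2% of starts in ES indirect, 27.8% in ES-1 and 6.76% in ES-2. In ES-2 the commonest start was nt 167, with 6.98%, and 57.5% of fragments ended at nt 214, the last base, against 24.1% in ES-1 and 29.9% in ES indirect. The start at nt 78 was as common before 18S (43.6%), the large subunit (43.4%), protein-coding RNAs (42.8%) and the 5′ETS (41.3%) in ES indirect. Before snoRNAs it was 36.4%, on 129 fragments. U3 bases 39 to 47, the stretch with the complement, lay outside most of these RNA1 fragments: a base of nt 1 to 77 was covered by 2.82% of the RNA1 fragments joined to the 5′ETS in ES indirect on average, and a base of nt 78 to 214 by 49.7%. In ES-1 these means were 29% and 39.1%. The 252 RNA2 fragments joined to the 5′ETS in ES indirect had means of 23.7% and 39.8%, and began most often at nt 30. The 4 of ES-1 had means of 0 and 76.8%, and the 2 of MEF 48.1% and 0. For RNA1 in self pairs the means were 42.9% and 35.0% in ES-1 and 34.9% and 34.1% in ES indirect. They were 15.6% and 39.5% in ES-2 and 4.03% and 27.6% in MEF.

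**Figure D4:**
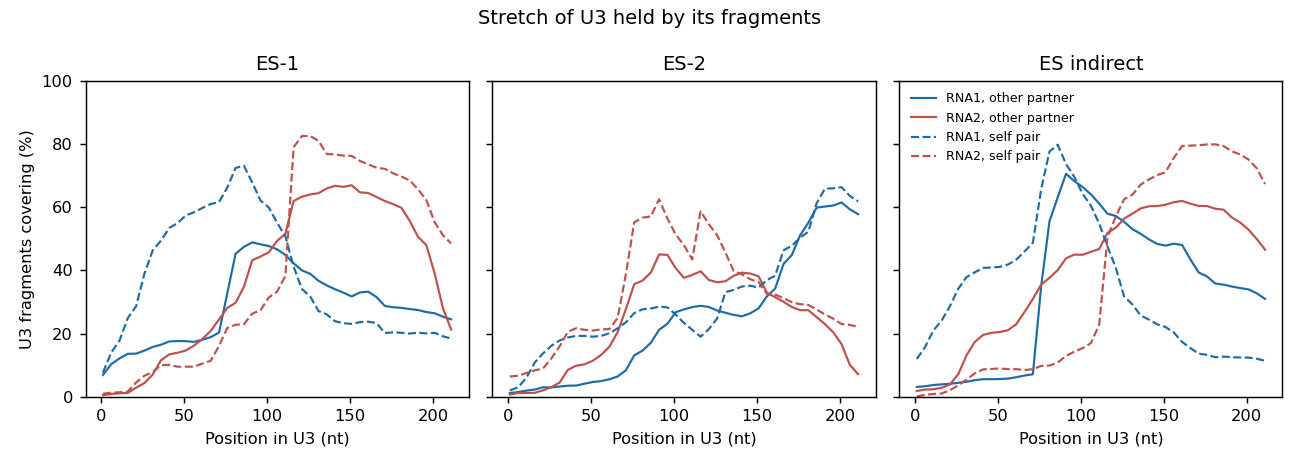
Share of U3 fragments that cover each position of U3 in percent, against position in nt, for U3 as RNA1 (blue) and RNA2 (red), joined to another RNA (solid) or to U3 (dashed). In ES-1 and ES indirect the RNA1 fragments joined to other RNAs rise between nt 70 and 90, and in ES-2 they rise toward the 3′ end.

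Pairs of U3 with U3 were common. They made up 7.69% of U3 read pairs in ES-1 (868, 7.21 to 8.19), 11% in the ES-2 library (166, 9.51 to 12.7), 36.6% in ES indirect (6359) and 20.8% in MEF (30, 15.0 to 28.2). How this compares with other snoRNAs depends on what a self pair is, since all U3 loci share 1 name and the other snoRNAs have a name per locus. By symbol, over all loci, the others joined to themselves in 3.69%, 3.34%, 13.5% and 2.96% of their read pairs, below U3 in each library. By locus, U3 had 2.19% (1.93 to 2.47), 2.78% (2.06 to 3.74), 8.59% (8.18 to 9.02) and 6.94% (3.82 to 12.3), and the others 3.13%, 2.79%, 12.2% and 2.54%. Counted in that way U3 lay below them in ES-1 and ES indirect, held their value in its interval in ES-2 and lay above in MEF. The count by locus is on the low side for U3, since fragments of its identical copies are spread over them. Both counts were chosen after the data were seen. The ES mean was 9.34% ± 2.34 for U3 by symbol (SD, n = 2). With U3 counted by symbol and the others by locus, of the snoRNA names with at least 200 read pairs, 16 of 278 in ES-1, 5 of 165 in the ES-2 library and 1 of 17 in ES indirect had a higher self share, with Scarna10 highest in ES-1 at 25.9%. Merging the copies gave 4.92%, 9.67%, 23.2% and 16.2%, and counting every line gave 64.9% in ES indirect. In MEF 27 of the 30 self pairs came from 1 of its flow cells, which held 32 of its 144 U3 read pairs.

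The geometry of the self pairs differed between libraries. A pair was overlapping where both fragments shared bases of U3, forward where RNA2 lay 3′ of RNA1, and reverse where RNA2 lay 5′ of RNA1. With equal positions counted once, 211 of 412 pairs were overlapping, 84 forward and 117 reverse in ES-1. In ES-2 there were 31, 10 and 97 of 138, in ES indirect 1280, 1062 and 543 of 2885, and in MEF 20, 2 and 0 of 22. The reverse share was 28.4% in ES-1 (24.3 to 32.9), 70.3% in the ES-2 library (62.2 to 77.3) and 18.8% in ES indirect (17.4 to 20.3). Overlapping pairs need 2 molecules of U3 or a fragment read on both sides, which cannot be told apart, and forward pairs keep the order of an unbroken molecule.

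Reverse pairs have the ends of U3 in an order that 1 unbroken molecule does not have. The order by itself favours late ends of RNA1 and early starts of RNA2, and RNA1 fragments joined to other RNAs also often ended at the last base, as given above, so the positions of the junctions are a description. In ES-1 RNA1 ended at nt 200 or later in 91 of 117 and RNA2 began at nt 60 to 82 in 54, with both in 48 (41.0%, 32.5 to 50.1). In ES-2 the counts were 95, 49 and 48 of 97 (49.5%, 39.7 to 59.3), and in ES indirect 387, 112 and 98 of 543 (18%, 15.0 to 21.5). Another 30, 15 and 265 reverse pairs had RNA2 starting at nt 20 to 40. In both ES libraries RNA2 thus began at nt 60 to 82 more often than at nt 20 to 40, and in ES indirect less often.

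Among snoRNA partners, U3 met 238 names, 204 of them in ES-1, 58 in the ES-2 library, 81 in ES indirect and 6 in MEF, and 48 in both ES libraries. The commonest in ES-1 was also the most abundant there. Snora81, an H/ACA snoRNA, had 75 read pairs with U3 in ES-1 and 7 in ES-2. It took 5.82% of the snoRNA partners of U3 in ES-1, and 6.25% of all snoRNA ends there. In ES merged U3 met Snora81 at 0.53 of the prediction, with exact adjusted p = 1 for an excess. Snora73b (U17), a snoRNA of 18S release, had 45 and 7 read pairs with U3, 0.66 of the prediction in ES merged.

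In ES indirect 10 of the 60 called partners of U3 were snoRNAs, against 2 of 37 in ES merged. These were 10 of the 81 snoRNAs tested with U3 in ES indirect and 2 of the 214 tested in ES merged. Of those with 3 read pairs or more they were 10 of 18, near the 54.5% of all such pairs in ES indirect, and 2 of 110, below the 11.1% of all in ES merged. The pair called in ES merged, SNORA33 and Snord45c, was not called with copies merged (exact adjusted p = 0.124 and 0.498). Of the 48 snoRNA names met in both ES libraries, 22 were also met in ES indirect. Snord14e (U14), a box C/D snoRNA that is needed for 18S, had 12 read pairs with U3, 3.48-fold over prediction (Fisher's exact test, adjusted p = 0.00381). Snord13 (U13), another snoRNA of the small subunit, had 5, 4.39-fold (exact adjusted p = 0.0173). Snora73b had 5, 3.24-fold (exact adjusted p = 0.0389), and Snord14a 4, 5.58-fold (exact adjusted p = 0.0171). With copies merged, Snord14e (10 read pairs), Snord13 (4) and Snord14a (3) were still called and Snora73b was not (exact adjusted p = 0.204). SNORD74 had 5 read pairs, 2.99-fold (exact adjusted p = 0.0488), and was still called with copies merged (exact adjusted p = 0.0378). SNORA74 (ENSMUSG00000077611) had 4, 19.8-fold (exact adjusted p = 0.00131), Snora74a 4, 4.03-fold (exact adjusted p = 0.0358), Scarna10 4, 6.41-fold (exact adjusted p = 0.0129), Snora75 3, 7.78-fold (exact adjusted p = 0.0186), and AC087117 3, 4.80-fold (exact adjusted p = 0.0457). None of these was called with copies merged, so 4 of the 10 calls remained. The U14 copies Snord14c and Snord14d had 6 read pairs each and were not called, at 1.78-fold and 1.61-fold (exact adjusted p = 0.166 and 0.217). The list of other snoRNAs of ribosomal cleavage had 11 of its 30 names joined to U3, with 179 read pairs, of which 125 were in ES-1, 9 in the ES-2 library, 44 in ES indirect and 1 in MEF.

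The pair test without ribosomal ends called U3 partners that mostly came from 1 library. Of all pairs of RNAs tested, 0.902% were called in ES merged, 1.1% in ES-1, 0.71% in the ES-2 library, 2.54% in ES indirect and 0.84% in MEF. For U3 37 of 1022 partners were called in ES merged (3.62%), 39 of 828 in ES-1, 4 of 307 in the ES-2 library, 60 of 1826 in ES indirect (3.29%) and 0 of 47 in MEF, where 24 had an unadjusted p under 0.05 by Fisher's exact test. Since only observed pairs were tested, 1 read pair with a rare partner can give such a p, so these 24 say little. Without ES-1 the count of ES merged fell to the 4 of ES-2. With copies merged it was 7 in ES merged and 24 in ES indirect, 0.685% and 1.31% of the partners, which is below the share of all pairs, and 31 of the 37 then had fewer than 3 read pairs. Among pairs with 3 read pairs or more, 17.6% of those of U3 were called in ES merged against 11.1% of all, and 25.8% against 54.5% in ES indirect. With copies merged these shares of U3 were 4.49% and 12.8%. Both ES libraries called 1 partner in common, FordPrefect, which is 5′ETS sequence, out of 39 and 4. It had 47 read pairs in ES merged, 14.2-fold over prediction (Fisher's exact test, adjusted p = 1.08e-34), with 42 from ES-1 and 5 from ES-2, and kept 20 with copies merged (exact adjusted p = 2.37e-09), when its call in ES-2 was lost (exact adjusted p = 0.121). The other called partner seen in both ES libraries was Asap2, a GTPase-activating protein of the ARF family, with 2 and 1 read pairs (11.9-fold, exact adjusted p = 0.0203), which was not called with copies merged (exact adjusted p = 0.0661), with a genome match of both fragments (exact adjusted p = 0.268), with fragments of at least 20 nt (exact adjusted p = 0.0711) or without either ES library. Besides FordPrefect, 4 of the 37 were still called with copies merged, all with read pairs in ES-1 alone: Sike1 on 4 read pairs, RLTRETN_Mm, a retroviral repeat, on 7, Prpf3, a splicing factor, on 3 and Zfyve20 on 3. Car13, a carbonic anhydrase, was called in ES-1 on 3 read pairs (6.74-fold, exact adjusted p = 0.0488) and in ES indirect on 12 (4.24-fold, exact adjusted p = 0.00122), but not in ES merged. It kept both calls with copies merged, on 3 and 8 read pairs (exact adjusted p = 0.0327 and 0.0141).

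Several partners of ES indirect were short or lay beside U3 genes. Tex14, whose span holds the Rnu3b copies, had 64 read pairs with U3, and in 60 of them the Tex14 fragment lay 0 to 765 nt upstream of a U3 copy. The 45 Tex14 read pairs with ends named as more than 2000 bp apart were 12.5-fold over prediction (exact adjusted p = 1.74e-32). With copies merged 24 remained (exact adjusted p = 9.79e-13). U3 fragments were spread over the identical copies, so the named copy does not give the true distance. The Tex14 ratio therefore cannot show a contact between separate RNAs. Sdk2, B1_Mur4 and Agap1 had 73, 72 and 72 read pairs with U3, with partner fragments of median 18, 18.5 and 18.5 nt. Of these 34, 25 and 32 matched the genome at their place, and 28 of the Sdk2 and 20 of the Agap1 fragments were also found in the 5′ETS. Their ratios to prediction were 2.49 (exact adjusted p = 6.31e-10), 1.5 (exact adjusted p = 0.00605) and 0.93 (exact adjusted p = 0.777). With copies merged Sdk2 was still called, on 57 read pairs (exact adjusted p = 1.00e-05), and B1_Mur4 was not, on 47 (exact adjusted p = 0.365). Whether the fragments of these names came from those genes was not tested.

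Fixed lists of RNAs were looked up among the partners of U3 and U7. Of 38 mRNAs of the U3 particle and the small subunit processome, 6 were joined to U3, by 11 read pairs. Ncl, the mRNA of nucleolin, had 4 in ES indirect (2.79-fold, exact adjusted p = 0.0866), and Utp20, of a processome subunit, 3 in ES-1 (22.3-fold, exact adjusted p = 0.00728), which became 1 with copies merged. Of 9 spliceosomal RNA names, 7 were joined to U3, by 194 read pairs, and none was called. U1 had 47 with U3 in ES-1, 2 in the ES-2 library and 63 in ES indirect, 0.74 of the prediction in ES merged and 0.47 in ES indirect. Of 18 mRNAs of the U7 particle and histone end processing, 3 were joined to U3 (Npat, Snrpb and Snrpe, 1 read pair each) and none to U7. Of 69 replication-dependent histone mRNAs, 21 were joined to U3, by 28 read pairs, 24 of them in ES indirect, led by Hist1h3g with 3. Of a short list of other small RNAs, 2 of 7 names were in the files and neither met U3 or U7.

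U7 fragments were nearly whole in ES-1 and ES indirect. In ES-1, 78 of 92 reached the last base of the 62-nt RNA, 3 reached the first, and the median length was 54.5 nt. In ES indirect 36 of the 42 at Rnu7 reached the last base and 7 reached both ends, with a median of 56 nt. The 6 fragments of ES-2 had a median of 25.5 nt and the 2 of MEF one of 25 nt. The first bases were lost most: nt 1 was covered by 3 of 92 fragments in ES-1 and nt 2 by 37, while nt 30 was covered by 86. Most U7 fragments were RNA1 in ES-1 (87 of 92) and RNA2 in ES indirect (32 of 45). No U7 self pair was seen in any library.

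**Figure D5:**
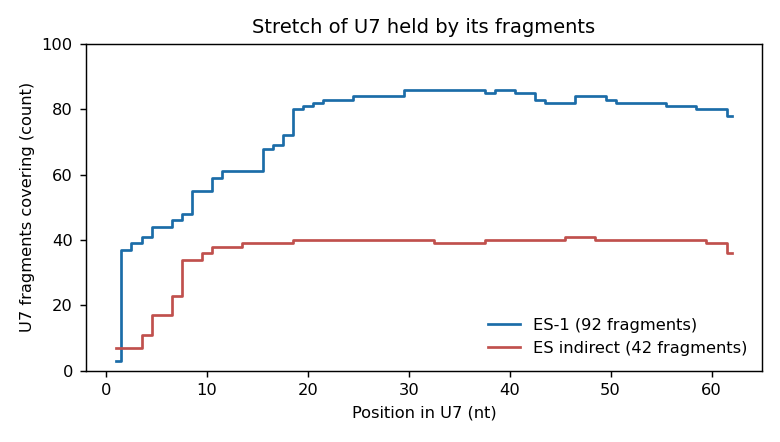
Number of U7 fragments that cover each position of Rnu7, against position in nt, for ES-1 (blue, 92 fragments) and ES indirect (red, 42 fragments at Rnu7). Coverage is lowest over the first bases and close to full from nt 20 to the 3′ end.

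U7 met mostly ribosomal RNA in ES-1 and mostly other RNAs in ES indirect. In ES-1, 62 of 92 partners were ribosomal (67.4%, 57.3 to 76.1), 10 were snoRNAs and 13 protein-coding. In ES-2 the 6 partners were 2 ribosomal, 2 snoRNA, 1 protein-coding and 1 repeat. In ES indirect 10 of 45 were ribosomal (22.2%, 12.5 to 36.3), 2 snoRNA, 3 small nuclear and 19 protein-coding (42.2%). The ribosomal share was also lower in ES indirect than in ES-1 for U3 (38.1% and 64.9%) and for the other snoRNAs pooled (42.0% and 69.6%). It is therefore not a trait of U7 alone. Of the ribosomal partners of U7, 45 of 62 in ES-1 and 8 of 10 in ES indirect were of the large subunit, and none lay in the 5′ETS. The upper bounds of these 5′ETS shares were 5.83% and 27.8%. Among the ribosomal partners of U3 the 5′ETS took 1.70% and 26.2%, so the U7 counts are too few for a contrast. The Watson-Crick search found no complement of 9 nt or more between U7 and the pre-ribosomal locus.

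No U7 partner was called. U7 had no partner with 3 or more read pairs outside ribosomal RNA, so the rule of 3 read pairs could not be met: 0 of 31 pairs were called in ES merged and 0 of 25 in ES indirect, where 17 and 19 had an unadjusted p under 0.05 by Fisher's exact test. Only observed pairs were tested, so 1 read pair with a rare partner already gives a small p. For Wwox in ES-1, 1 read pair against 0.00803 predicted gave p = 0.008 by Fisher's exact test. Those 17 and 19 therefore say little. By the names of the files, the partners with more than 1 read pair were Ptprg, a receptor phosphatase, and U2, both in ES indirect, and L1Md_T and Wwox, each once in ES-1 and once in ES indirect. Ptprg had 2 read pairs at different places of the gene against 0.0409 predicted (exact adjusted p = 0.00655). The U2 pair had the same U7 fragment, nt 5 to 62, and U2 fragments of 98 nt at different U2 loci, and their exact adjusted p was 0.0906. The Wwox fragments lay at chr8:117287945-117287972 and chr8:117319139-117319170. The L1Md_T fragments overlapped each other, at chr13:9833641-9833668 and chr13:9833648-9833687, in a stretch that 6788 ends of ES-1 and 7795 of ES indirect overlapped. In ES-1 SNORA74 was met once at each of 2 loci that the files name apart. Among the many partners met once were AI480653, Apba1, AC120136 and AT_rich, all in ES indirect, which the naming rule took. The AT_rich fragment lay beside the U7 locus of chromosome 12 it was joined to, 1 of 3 U7 ends of ES indirect that were not at Rnu7. U7 also met U3 once, in ES indirect, with U7 nt 19 to 62 and a U3 fragment within Rnu3b.

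U7 met 2 of the 69 histone mRNAs, Hist1h2bq and Hist1h2br, 1 read pair each, both in ES indirect and both with U7 as RNA2. No histone mRNA was joined to U7 in ES-1, ES-2 or MEF, where the depth was 92, 6 and 2 U7 read pairs. The Hist1h2bq fragment, chr13:21901609-21901713 on the minus strand, was 105 nt long and on the sense strand of the gene. It covered the end of the coding sequence with the stop codon of 1 annotated isoform and ran 51 nt past it, beyond the annotated exon. It held 1 hairpin of 6 base pairs and a loop of 4 nt, which ended 6 nt before the end of the fragment. The U7 fragment joined to it was nt 8 to 62.

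The 30 nt that follow the Hist1h2bq fragment, chr13:21901579-21901608 on the minus strand, are shown because U7 pairs downstream of histone cleavage sites, next to the first 18 nt of U7. The capitals mark the longest uninterrupted complement in the 60 nt searched, 6 nt, between U7 nt 8 to 13 and nt 16 to 21 past the fragment. Aligned as a whole, the reverse complement of these 18 nt of U7 differed from nt 12 to 28 past the fragment at 3 positions. Past the Hist1h2br fragment (chr13:21926766-21926814, plus strand, in an intron of the annotated isoforms and with no such hairpin) the best alignment differed at 7. These are 2 read pairs of 45, and neither pair was called.
Hist1h2bq, next 30 nt: actttcagcgtaaaaAGCTGTtacacatgc
U7, first 18 nt: aagtgttACAGCTctttt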

How the data were processed

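According to the methods, the authors removed PCR duplicates, split each molecule at the linker, kept molecules with both fragments uniquely placed on mm9, and annotated both. Each deposited line is 1 read pair with positions, strands, sequences and names, and the deposited libraries are separate. For its ES cell interactome the study merged ES-1 and ES-2, and ES merged pools them here. The processing notes name TopHat2 2.1.1, with no role given. The deposited values are of another kind than counts, namely positions, strands and names, and the brain files were used for line counts only.

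Counts were made here with Python 3.11.15 and pandas 2.3.3. Lines with equal coordinates and strands were collapsed. U3 copies of GENCODE vM1 with at least 75% identity were aligned to Rnu3b, which placed 97.6% to 100% of U3 ends on U3. Collapsed read pairs numbered 2310134 and 1241787 for ES-1 and ES-2, 1655476 for ES indirect and 373978 for MEF. The pair test (scipy 1.17.1) used read pairs between RNAs over 2000 bp apart and was tested on simulated data. Only observed pairs enter the adjustment, so its adjusted p-values are on the small side. Alternatives were every line, a genome match of both fragments (up to 15% mismatches), fragments of at least 20 nt without linker, other minimum read pairs, ribosomal ends kept, each locus as its own RNA, ambiguous sequence left out, coordinates within 5 bases joined, and each ES library left out. Merging the copies and naming the 5′ETS were chosen after the data were seen.

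Members and lists were chosen with earlier results of these data known. Named partners are the called ones of ES merged seen in both ES libraries, filled with those of most read pairs, and list members with a read pair. Tex14, Mir5099, Celf4, Snord14a, Snora64, Car13, the snoRNAs called in ES indirect or ES merged and the partners kept with copies merged were named after their values were seen. Coordinates are 1-based on NCBIM37, and sequences come from that genome at GENCODE vM1 loci.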

Additional observations from a re-analysis of the deposited data

How the results depend on the processing

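No paired analysis was possible because the groups share only replicate number 1 and ES indirect and MEF have 1 library each.

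The excess of U3 with the 5′ETS kept its direction and its side of the threshold in ES merged, ES indirect and MEF under each alternative run for it. These were every line, a genome match of both fragments, fragments of at least 20 nt, copies merged and, for ES merged, each ES library left out. The other alternatives were not run for this pair. In MEF it rests on 3 read pairs, the minimum for a call. In ES merged it ranged from 3.62-fold without ES-1 to 9.70-fold with every line counted, and in ES indirect from 2.01-fold with every line counted to 2.94-fold with fragments of at least 20 nt. The share of U3-joined fragments in the 5′ETS changed by more than its error: the ES mean was 8.90% with every line counted and 3.54% with copies merged, and ES indirect had 51.4% and 44.7%. The number of called U3 partners was the least stable value. In ES merged it was 37, and it was 84 with every line counted, 58 with a minimum of 2 read pairs, 14 with a minimum of 5 and 7 with copies merged, and 4 to 39 when 1 ES library was left out. In ES indirect it was 60, and 95, 98, 20 and 24 under the same settings, and 31 with ribosomal ends kept. In MEF it was 0, and 2 with each locus as its own RNA and 1 with a minimum of 2 read pairs. For U7 none was called, against 5 in ES merged with every line counted and 1 in ES indirect with a minimum of 2 read pairs. The cause was not tested, except that a lower minimum admits more pairs by construction and that merging the copies left 31 of the 37 with under 3 read pairs. No result called in the main counts, with lines collapsed, changed direction. Among pairs not called there, U3 with U1 in ES merged went from 0.74 to 1.01 and U7 with L1Md_T from 1.37 to 0.93 with every line counted. U3 with Sdk2 went from 0.24 to 1.40 without ES-2. U3 with ITS1 went from 1.32 to 0.74 with copies merged, and to 7.63 with every line counted, where it was called. Depth limits U7: with 45 read pairs in ES indirect, 6 in ES-2 and 2 in MEF, partners met in a few percent of contacts can be missed. Where seen, they can stay under the 3 read pairs of a call. With a genome match of both fragments, or fragments of at least 20 nt, no U7 read pair was left in MEF, so no self pair share could be given there.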
